A study of Mus musculus with 18 samples.

Results

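This account follows 9 genes of the interferon pathway through early mouse embryos in which Echs1 was knocked down or which received sodium crotonate or sodium acetate. The genes, Ifi35, Isg15, Stat2, Irf9, Irf1, Irf7, Ifitm1, Ifitm2 and Ifitm3, were chosen by symbol and make up 9 of the 55098 genes with a unique symbol. All 9 were found in each of 18 libraries. An siRNA experiment set embryos given siRNA against Echs1 (siEchs1) against embryos given a control siRNA (siCon) at 2 stages, E2C and L2C, and has 3 libraries a group in 4 groups. A treatment experiment set zygotes given sodium crotonate or sodium acetate against zygotes given DMSO, all labelled wild type and all taken at E2C, the early 2-cell stage, and has 2 libraries a group in 3 groups. The labels do not spell out L2C and state no dose, mouse strain or siRNA sequence, and they state no genotype for the siRNA embryos. A library holds the pooled poly(A) RNA of 5 to 10 embryos, amplified by the full-length method Smart-seq2, so fewer cells that express a gene and less RNA per cell cannot be told apart. Values are FPKM, fragment counts scaled by each gene's exon length and by the mapped fragments of the library.

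Interferons are secreted signals of virus infection. Type I interferons act through JAK kinases on STAT factors, and STAT2 and IRF9 are parts of the complex ISGF3. This complex binds the interferon-stimulated response element (ISRE) in the promoters of induced genes, while interferon gamma acts through the gamma-activated sequence (GAS). Pluripotent and very early embryonic cells are known for a weak interferon response. Among the 9 genes, Stat2, Irf9, Irf1 and Irf7 encode transcription factors, and Irf7 is known for driving type I interferon genes. Isg15 encodes a ubiquitin-like modifier, Ifi35 a leucine zipper protein that pairs with NMI, and Ifitm1, Ifitm2 and Ifitm3 small membrane proteins that restrict virus entry.

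The promoters were read for both elements, because ISGF3 components and genes induced by them are set side by side below. RefSeq promoter windows of GRCm38.p6, from 250 bases before to 50 bases after a start site, were found for all 9 genes. The letters GAAANNGAAA (ISRE core) were looked for on both strands and occurred in 3.43% of 32817 windows, and TTCNNNGAA (GAS core), which reads alike on both strands, in 8.29%. Counted by gene, the ISRE core stood in windows of 4 of the 9 genes, 29 of 95 other pathway genes and 3.98% of 26994 genes in all. The GAS core stood in windows of 3 of the 9 genes, 23 of the 95 and 9.55% of all. These lines give the stretch around each match, 5′ to 3′ on the strand of the gene, with the matched letters in capitals. Ifi35 is at chr11:101448394-101448441 (plus strand), Isg15 at chr4:156200850-156200921 (minus), Stat2 at chr10:128270251-128270310 (plus), Irf1 at chr11:53769899-53769957 (plus), Ifitm2 at chr7:140955973-140956032 (minus) and Ifitm3 at chr7:141010715-141010767 (minus).
Ifi35: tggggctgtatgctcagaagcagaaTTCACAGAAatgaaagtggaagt
Isg15: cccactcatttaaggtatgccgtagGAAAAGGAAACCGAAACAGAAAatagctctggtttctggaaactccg
Stat2: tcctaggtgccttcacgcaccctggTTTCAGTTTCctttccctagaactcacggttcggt
Irf1: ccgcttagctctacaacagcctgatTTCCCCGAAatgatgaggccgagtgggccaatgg
Ifitm2: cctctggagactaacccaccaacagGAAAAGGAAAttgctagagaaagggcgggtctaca
Ifitm3: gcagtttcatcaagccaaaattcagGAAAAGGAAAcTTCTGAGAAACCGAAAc

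Isg15 had 3 ISRE matches that overlap one another, at bases -78 to -57 from its start. Ifitm2 had 1 (-46 to -37) and Ifitm3 had 2 (3 to 12 and 20 to 29), and Stat2 had 1 on the opposite strand (-222 to -213). Ifi35 (8 to 16), Irf1 (-90 to -82) and Ifitm3 (14 to 22, overlapping its second ISRE match) held the GAS core. In Irf7, Irf9 and Ifitm1 neither set of letters occurred in these windows. A match describes the letters and shows no binding.

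The genes lie on chromosomes 4, 7, 10, 11 and 14 of mm10. Ifitm1 (140967221 to 140969825), Ifitm2 (140954837 to 140955987) and Ifitm3 (141009586 to 141010770) are neighbours on chromosome 7. Their coding sequences are related, so reads may be shared among them. Irf7 (chromosome 7, 141262706 to 141266481) overlaps the span of Phrf1 by 45 nt, and Irf9 (chromosome 14, 55603571 to 55610030) overlaps Rnf31 by 123 nt. Ifi35 (chromosome 11, 101448407 to 101458698) overlaps the noncoding Gm11626, which reached at most 0.90 FPKM. Irf1 (chromosome 11, 53770014 to 53778374) overlaps Gm17334 by 907 nt, and that gene reached 1.44 FPKM in replicate 3 of siEchs1 E2C and at most 0.72 FPKM elsewhere. Ifitm2 overlaps Gm45717 by 1101 nt, and that gene was at most 0.19 FPKM. The files keep no strand, so reads in such overlaps cannot be assigned.

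The libraries held FPKM totals of 708113 to 1123993, with 13378 to 16703 genes at 1 FPKM or more in the siRNA experiment and 12037 to 12856 in the treatment experiment. The spacing of low values gave a rough depth of 9.62 to 30.88 M fragments a library. Echs1 itself was at 0.71 to 5.88 FPKM in the 6 siEchs1 libraries and at 24.4 to 42.6 FPKM in the other 12. Replicate 3 of siEchs1 E2C stood apart. Its Spearman rho with replicates 1 and 2 was 0.668 and 0.718, against 0.900 between those, so results of siEchs1 E2C are given with and without it. All 7 marker genes of the 2-cell stage were above 0 in every library, but their sum was 661 to 948 FPKM in siEchs1 E2C against 1910 to 1939 FPKM in siCon E2C, and 249.4 to 368 FPKM in siEchs1 L2C against 891 to 1174 FPKM in siCon L2C. Both stages thus had lower 2-cell marker sums with siEchs1, and the part of this in the values below was not tested. Of the 7 genes, Tcstv1 alone went the other way at L2C. It was at 146, 208 and 175 FPKM in siEchs1 L2C, against 87.0, 94.8 and 118.7 FPKM in siCon L2C. Tdpoz4, at 10.5 to 44.6 FPKM in siEchs1 L2C against 318 to 487 FPKM in siCon L2C, differed most in FPKM there. Mitochondrial transcripts took 1.69% to 10.3% of the total in siEchs1 E2C against 13.1% to 17.1% in siCon E2C, and 0.83% to 2.27% in siEchs1 L2C against 7.58% to 11.2% in siCon L2C. The labels do not tie replicates to separate matings or cultures, so each p-value reflects sample-to-sample spread that may be technical.

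The first comparison asked how the interferon genes differed between siEchs1 and siCon embryos at E2C. Ifi35 and Ifitm1 were lower in siEchs1 E2C, 6 genes of the set gave no call, and Irf1 was high in replicates 1 and 2 alone. Ifi35 was at 0.03, 1.08 and 1.08 FPKM in siEchs1 E2C, against 13.7, 14.3 and 10.8 FPKM in siCon E2C. All siEchs1 libraries lay far below all siCon libraries. The log2 fold change of FPKM + 1, the scale of all fold changes here, was -3.08 (SE 0.45, limma adjusted p = 0.000989), with means of 0.73 ± 0.606 against 13.0 ± 1.86 FPKM (SD, n = 3 each). Ifitm1 was at 0.20, 0.06 and 0.33 FPKM in siEchs1 E2C, against 5.75, 2.04 and 4.65 FPKM in siCon E2C. These groups did not overlap either, and the log2 fold change was -2.03 (SE 0.44, limma adjusted p = 0.00755).

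Ifitm3, the most abundant of the 9 genes in every library except replicates 1 and 3 of siEchs1 L2C, where Irf1 was higher, was at 268, 213 and 279 FPKM in siEchs1 E2C, against 362, 501 and 552 FPKM in siCon E2C. The groups did not overlap, but the difference missed the threshold (-0.88, SE 0.30, limma adjusted p = 0.0546). Irf1, a factor induced by interferon gamma, was at 36.7, 65.6 and 4.56 FPKM in siEchs1 E2C, against 4.39, 7.72 and 5.39 FPKM in siCon E2C. Replicate 3 of siEchs1 lay among the siCon libraries and the difference was not called (1.85, 95% interval 0.26 to 3.43, limma adjusted p = 0.0929). It was called after rescaling without mitochondrial and ribosomal RNA (2.06, limma adjusted p = 0.0443).

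Stat2 and Irf9, genes of ISGF3, were low at E2C in either group. Stat2 was at 1.85, 2.19 and 2.34 FPKM in siEchs1 E2C, against 2.43, 1.91 and 1.52 FPKM in siCon E2C. The groups overlapped (0.09, limma adjusted p = 0.882). Irf9 was at 0.19, 0.06 and 1.88 FPKM in siEchs1 E2C, against 2.11, 0.96 and 1.40 FPKM in siCon E2C, and replicate 3 again lay within the siCon range (-0.67, limma adjusted p = 0.274). Isg15 was listed at 0, 0 and 3.22 FPKM in siEchs1 E2C, against 0.35, 0.17 and 0.29 FPKM in siCon E2C (0.35, limma adjusted p = 0.708). The highest of these 6 Isg15 values was replicate 3 of siEchs1, without which the log2 fold change was -0.34 (limma adjusted p = 0.604). Irf7, at most 1.15 FPKM, and Ifitm2, at most 0.38 FPKM, overlapped between the groups and were not called (limma adjusted p = 0.829 and 0.699). Without replicate 3 of siEchs1 the Irf7 log2 fold change was -0.17 (limma adjusted p = 0.804), against 0.16 with it. That of Stat2 was then 0.04 (limma adjusted p = 0.952) and that of Ifitm2 -0.27 (0.54), against -0.18 for Ifitm2 with the replicate.

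Of the 9 genes tested at E2C, 2 were lower and 0 were higher, where 9.31% of all 17652 genes tested were lower and 11.0% higher. The split of all genes was 1934 higher and 1644 lower, or 2704 and 1202 after rescaling without mitochondrial and ribosomal RNA. The balance turned to more lower than higher after quantile normalization (1695 higher and 1882 lower) and when only the 6 E2C libraries were fitted (532 and 821). The median log2 fold change was -0.18 over the 9 genes and 0.15 over all genes. Without replicate 3 of siEchs1 E2C, 5 of the 9 were called, where 13.8% of all genes were lower and 23.0% higher. Ifi35 (-3.24, limma adjusted p = 0.000172) and Ifitm1 (-2.11, limma adjusted p = 0.0034) stayed lower. Irf9 (-1.12, limma adjusted p = 0.024) and Ifitm3 (-0.96, limma adjusted p = 0.0206) were then lower as well, and Irf1 was higher (2.90, limma adjusted p = 0.000254).

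**Figure D1:**
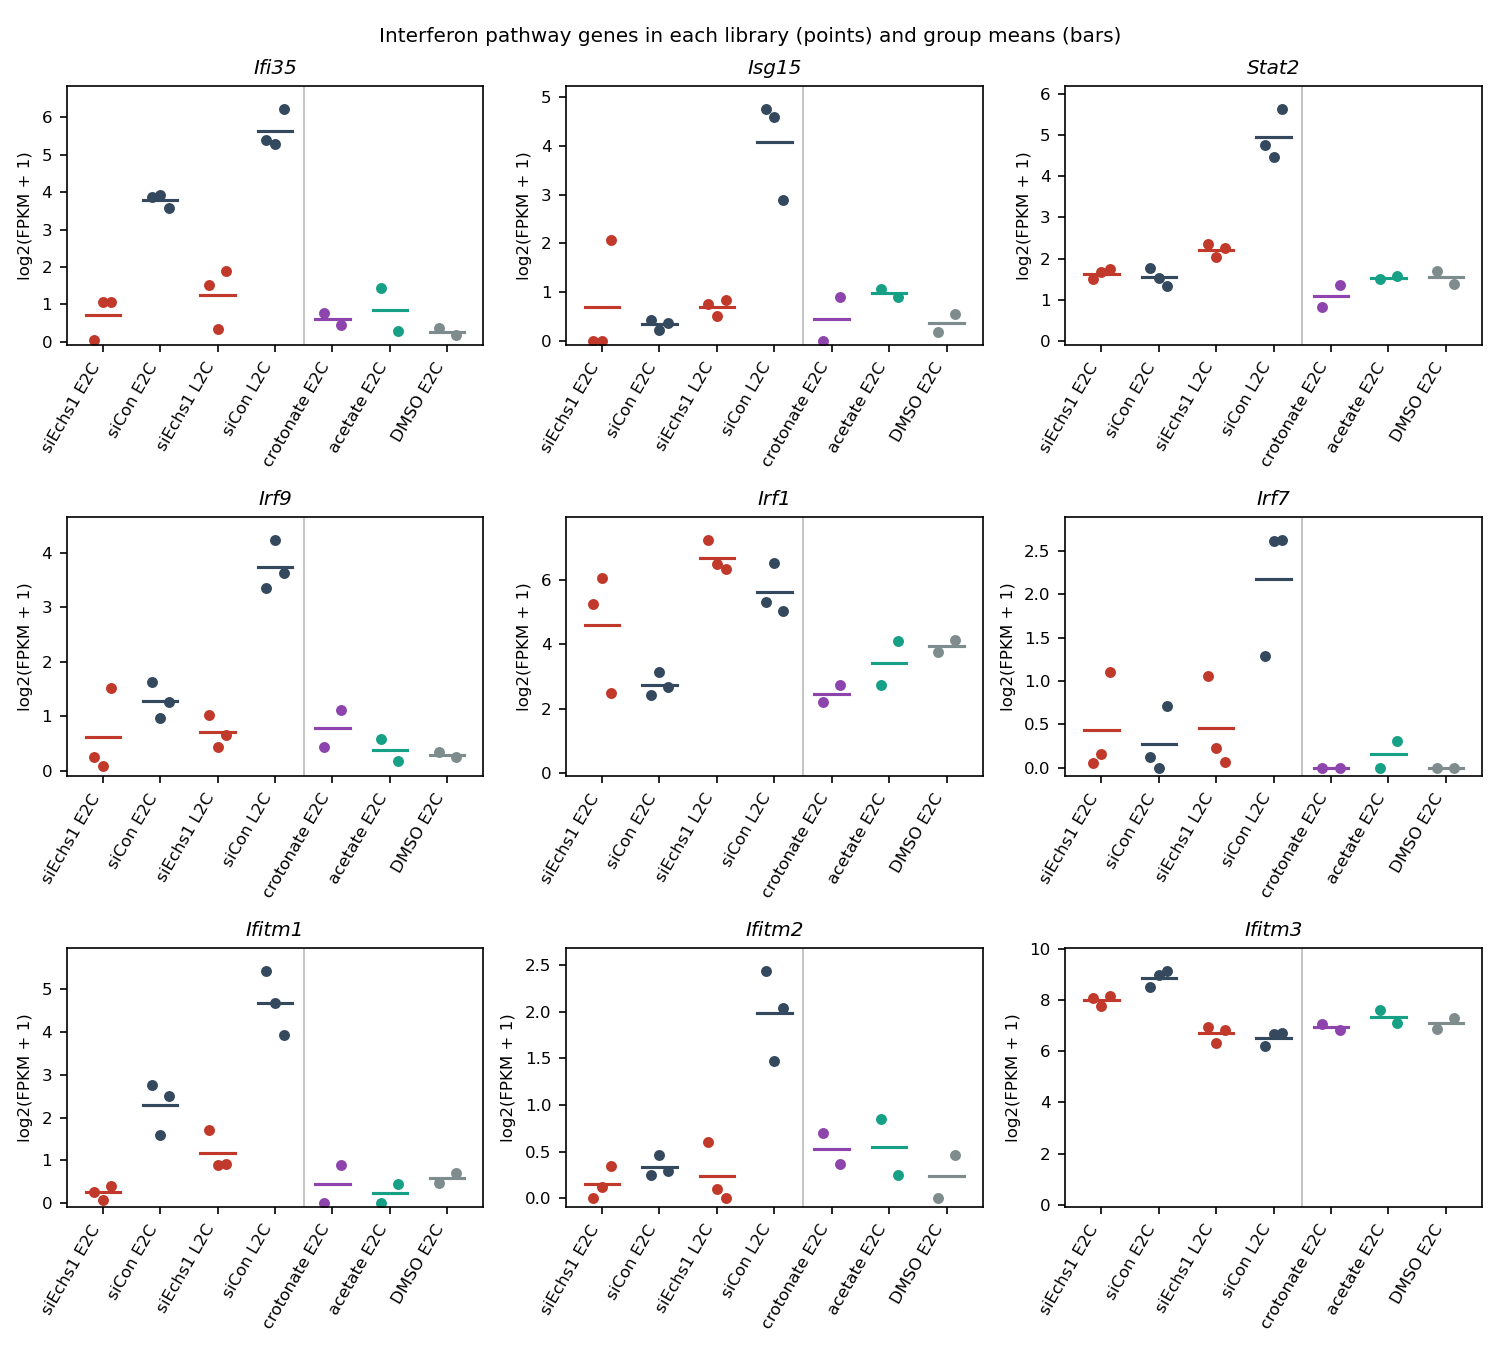
Level of each of the 9 genes in each library (points, log2 of FPKM + 1; bars, mean of the log2 values in a group), with the siRNA groups left of the grey line and the treatment groups right of it. In the Ifi35 panel the siEchs1 libraries lie at 0.03 to 2.71 FPKM and the siCon libraries at 10.8 to 73.6 FPKM, and in the Irf1 panel replicate 3 of siEchs1 E2C (4.56 FPKM) lies apart from the other 2.

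At L2C the same comparison reached 7 of the 9 genes. Ifi35, Isg15, Stat2, Irf9, Irf7, Ifitm1 and Ifitm2 were lower in siEchs1 L2C, and in each of the 7 no siEchs1 library overlapped a siCon library. Groups without overlap were common at L2C, with 32.6% of all 17652 genes lower and 30.5% higher in every siEchs1 library. Irf1 and Ifitm3 were not called. Of all 17652 genes tested 26.9% were lower and 21.9% higher. The median log2 fold change was -2.72 over the 9 genes and -0.08 over all genes. Isg15, Irf7 and Ifitm2 would not have passed the filter on low values without siCon L2C, where they were high. The count and median that hold them are given as values and not as support. Ifi35, Stat2, Irf9 and Ifitm1 would have passed it without siCon L2C.

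Stat2 and Irf9 stood first by adjusted p among the factors of the set. Stat2 was at 4.16, 3.75 and 3.14 FPKM in siEchs1 L2C, against 25.9, 21.0 and 48.2 FPKM in siCon L2C. All siEchs1 libraries lay below all siCon libraries, and the log2 fold change was -2.72 (SE 0.34, limma adjusted p = 0.000111). Irf9 was at 1.04, 0.58 and 0.35 FPKM in siEchs1 L2C, against 9.20, 17.7 and 11.3 FPKM in siCon L2C. The log2 fold change was -3.03 (SE 0.41, limma adjusted p = 0.000168). Rnf31, whose span overlaps Irf9, was at 7.07, 4.76 and 4.02 FPKM in siEchs1 L2C, against 26.8, 21.99 and 18.4 FPKM in siCon L2C, and its part in the Irf9 value was not tested.

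The other factors gave lower values for Irf7 and no call for Irf1. Irf7 was at 1.09, 0.05 and 0.17 FPKM in siEchs1 L2C, against 1.44, 5.13 and 5.19 FPKM in siCon L2C. The groups did not overlap, though siEchs1 replicate 1 and siCon replicate 1 lay close to each other (-1.72, SE 0.43, limma adjusted p = 0.0059). Phrf1, which overlaps the end of Irf7, was at 8.38, 9.74 and 3.16 FPKM in siEchs1 L2C, against 56.8, 77.9 and 95.5 FPKM in siCon L2C, and its part in the Irf7 value was not tested. Irf1 was at 148, 78.9 and 89.1 FPKM in siEchs1 L2C, against 38.8, 89.9 and 31.7 FPKM in siCon L2C. These groups overlapped through replicate 2 of siCon (1.06, 95% interval -0.52 to 2.65, limma adjusted p = 0.247). Leaving replicate 3 of siEchs1 E2C out of the shared estimate of spread brought Irf1 past the threshold at L2C with the same fold change (limma adjusted p = 0.034), where 30.9% of all genes were lower and 27.5% higher.

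Among the induced genes Ifi35 changed most. It was at 1.86, 2.71 and 0.27 FPKM in siEchs1 L2C, against 40.8, 38.3 and 73.6 FPKM in siCon L2C. Means were 1.61 ± 1.24 against 50.9 ± 19.7 FPKM (SD, n = 3 each), with a log2 fold change of -4.38 (SE 0.45, 95% interval -5.36 to -3.41, limma adjusted p = 5.55e-05). No siEchs1 library came near the siCon range. Nmi, the partner of IFI35, was near the floor, at 0.143 ± 0.123 FPKM in siEchs1 L2C against 0.883 ± 0.778 FPKM in siCon L2C, and did not enter the test.

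Isg15 was at 0.68, 0.79 and 0.42 FPKM in siEchs1 L2C, against 26.04, 23.3 and 6.45 FPKM in siCon L2C. Replicate 3 of siCon was the lowest of its group and still above all siEchs1 libraries (-3.39, SE 0.57, limma adjusted p = 0.000546). Ube2l6, which encodes an enzyme that acts in the transfer of ISG15 to its targets, was lower too, at 0.11 ± 0.0954 FPKM in siEchs1 L2C against 2.10 ± 0.874 FPKM in siCon L2C (SD, n = 3 each; -1.45, limma adjusted p = 0.000605). It reached 1 FPKM in siCon L2C alone and was at most 0.44 FPKM in the other siRNA libraries. Ube2l6 thus entered the test only through the group in which it was high, and its call is given as a value and not as support.

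The 3 Ifitm genes did not move alike. Ifitm1 was at 2.25, 0.89 and 0.87 FPKM in siEchs1 L2C, against 41.9, 24.5 and 14.2 FPKM in siCon L2C (-3.50, SE 0.44, limma adjusted p = 0.00011). Ifitm2 was at 0.52, 0 and 0.07 FPKM in siEchs1 L2C, against 4.42, 1.77 and 3.11 FPKM in siCon L2C (-1.75, SE 0.28, limma adjusted p = 0.000411). Both were separated by group without overlap. Ifitm3 was at 120.3, 113 and 79.1 FPKM in siEchs1 L2C, against 73.3, 100.5 and 103 FPKM in siCon L2C. Its groups overlapped, and the 95% interval of the log2 fold change was -0.48 to 0.81 (0.17, limma adjusted p = 0.667).

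The filter on low values asked for 1 FPKM in at least 3 of the 12 siRNA libraries, and all 9 genes passed it. Stat2, Irf1 and Ifitm3 reached it in all 12 libraries, Ifi35 in 10, Irf9 and Ifitm1 in 7, Irf7 in 5, Isg15 in 4 and Ifitm2 in 3. The 3 libraries of Ifitm2 were those of siCon L2C, so that gene entered the test only through the group in which it was high. Without it 6 of 8 genes were called at L2C, with a median log2 fold change of -2.88. Isg15 reached 1 FPKM in siCon L2C and in replicate 3 of siEchs1 E2C alone. Irf7 reached it in siCon L2C, replicate 3 of siEchs1 E2C (1.15 FPKM) and replicate 1 of siEchs1 L2C (1.09 FPKM) alone. Without the siCon L2C libraries neither gene would have passed the filter, and both are still among the 8 genes. The calls of Isg15, Irf7 and Ifitm2 at L2C are thus given as values and not as support.

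**Figure D2:**
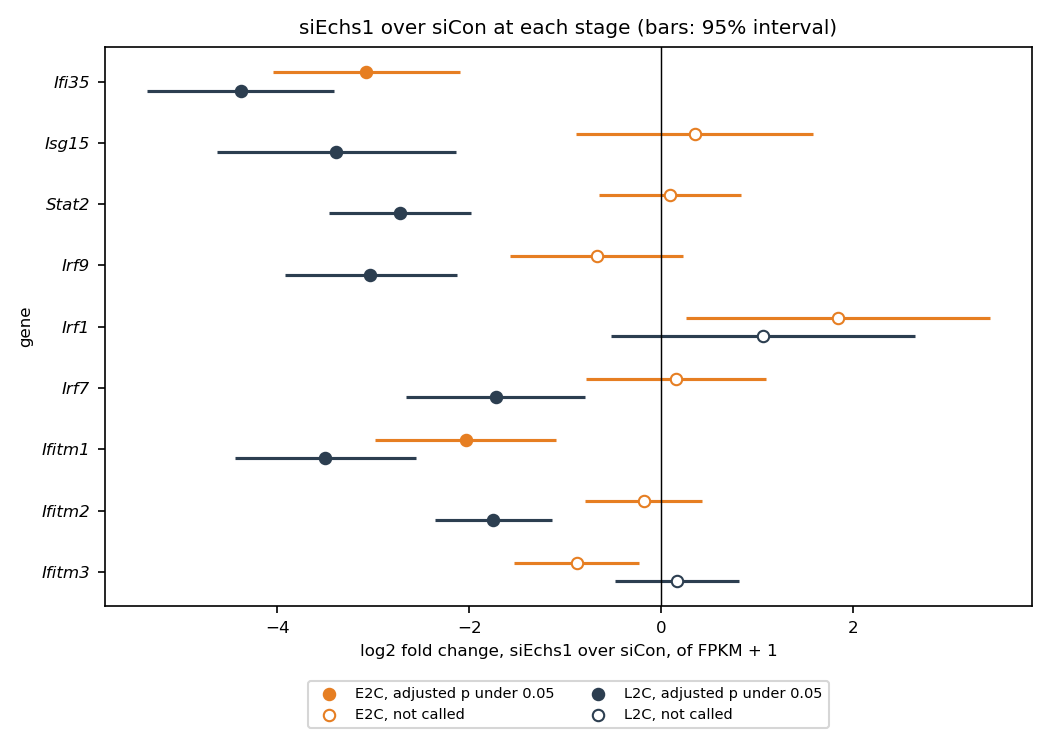
Log2 fold change of FPKM + 1, siEchs1 over siCon, for each of the 9 genes at E2C (orange, upper) and L2C (dark, lower); points are limma estimates, bars 95% intervals, and filled points have an adjusted p under 0.05. At E2C 2 of 9 points are filled and at L2C 7 of 9, all left of 0.

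Whether the effect of siEchs1 differed between the stages was tested as the difference of the log2 fold changes, L2C minus E2C. It was negative and called for 4 of the 9 genes, while 11.6% of all 17652 genes were called negative and 5.65% positive. Without Ifitm2, which entered the test only through siCon L2C, it was 3 of 8. Isg15, among those called, would not have passed the filter without siCon L2C either. Stat2 (-2.81, SE 0.48, limma adjusted p = 0.00525) and Isg15 (-3.74, SE 0.81, limma adjusted p = 0.0118) had the smallest adjusted p. Irf9 differed by -2.36 (SE 0.58, limma adjusted p = 0.0193) and Ifitm2 by -1.57 (SE 0.40, limma adjusted p = 0.0206). In siCon E2C Stat2 averaged 1.95, Isg15 0.27, Irf9 1.49 and Ifitm2 0.263 FPKM. A fall at E2C thus had little room on this scale, so the test cannot tell a smaller effect at E2C from a floor. Without replicate 3 of siEchs1 E2C all 4 stayed called, with differences of -2.76 for Stat2 (limma adjusted p = 0.00273), -3.05 for Isg15 (0.00521), -1.90 for Irf9 (0.0136) and -1.48 for Ifitm2 (0.0242). The Irf9 call ended without replicate 2 of siCon E2C (limma adjusted p = 0.0504) or replicate 3 of siEchs1 L2C (0.0559). The Ifitm2 call ended without replicate 3 of siCon E2C (limma adjusted p = 0.0523) or replicate 2 (0.0545) or 3 (0.0599) of siEchs1 L2C, and after quantile normalization (0.0565). With a pseudocount of 0.1 the calls of Isg15 (limma adjusted p = 0.102), Irf9 (0.19) and Ifitm2 (0.111) ended.

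Ifi35 was lower at both stages, and the difference of its effects was not called (-1.31, SE 0.64, limma adjusted p = 0.17). Neither was that of Ifitm1 (-1.47, limma adjusted p = 0.117) or Ifitm3 (1.05, limma adjusted p = 0.104). Irf7 missed the threshold (-1.89, SE 0.61, limma adjusted p = 0.0514) and crossed it when replicate 1 was left out of siEchs1 E2C (-2.08, limma adjusted p = 0.0392), of siCon L2C (-2.33, 0.0218) or of siEchs1 L2C (-2.19, 0.0393), and after rescaling without mitochondrial and ribosomal RNA (-1.99, 0.0384). For Irf1 the difference was -0.78 (limma adjusted p = 0.63), or -1.84 (0.0401) without replicate 3 of siEchs1 E2C. Leaving out the same library gave -1.14 for Ifi35 (limma adjusted p = 0.208), -1.39 for Ifitm1 (0.127), 1.12 for Ifitm3 (0.0542) and -1.55 for Irf7 (0.0676), none of them called. The median difference was -1.57 over the 9 genes, -1.68 without Ifitm2 and -0.21 over all genes. Both medians of the set hold Isg15 and Irf7, which would not have passed the filter without siCon L2C. All genes split into 997 positive and 2042 negative calls, or 1600 and 1558 after quantile normalization.

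The stage comparisons share their libraries with the siRNA comparisons and are given as their own values. In siCon embryos 8 of the 9 genes were higher at L2C than at E2C and Ifitm3 was lower. Without Ifitm2, which entered the test only through siCon L2C, 7 of 8 were higher. Isg15 and Irf7 would not have passed the filter without siCon L2C either. The rises of Isg15, Irf7 and Ifitm2 are thus given as values and not as support. None of the 9 overlapped between the stages, as was so for many genes, with 42.8% of all 17652 genes higher and 21.0% lower in every L2C library. Stat2 was at 31.7 ± 14.5 FPKM in siCon L2C against 1.95 ± 0.457 FPKM in siCon E2C (SD, n = 3 each; 3.39, limma adjusted p = 1.35e-05). Isg15 was at 18.6 ± 10.6 FPKM in siCon L2C against 0.27 ± 0.0917 FPKM in siCon E2C (3.74, limma adjusted p = 0.000209). These gave the largest changes of the set. Ifi35, already at 10.8 to 14.3 FPKM in siCon E2C, changed less (1.84, limma adjusted p = 0.00468), and with a pseudocount of 0.1 its call ended (1.91, limma adjusted p = 0.091). Irf1 (2.87, limma adjusted p = 0.00595), Irf9 (2.44, limma adjusted p = 0.000411), Ifitm1 (2.39, limma adjusted p = 0.000692), Irf7 (1.90, limma adjusted p = 0.003) and Ifitm2 (1.65, limma adjusted p = 0.000449) rose as well. Ifitm3 fell to 92.3 ± 16.5 FPKM in siCon L2C, against 472 ± 98.4 FPKM in siCon E2C (-2.33, limma adjusted p = 6.06e-05).

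Many genes rose with stage in siCon. Of all 17652 genes 35.8% were higher at L2C and 14.4% lower, with a median log2 fold change of 0.51. After quantile normalization that median was -0.01 and the split of all genes was 4192 higher and 4243 lower, in place of 6326 and 2544. The 9 calls and their directions held under that scaling, with smaller changes for the 8 rising genes. Ifi35 was then at 1.24 (limma adjusted p = 0.0318) and Stat2 at 2.83 (limma adjusted p = 4.73e-05).

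In siEchs1 embryos Ifitm3 was the only gene of the 9 called between the stages. It was at 104 ± 22.1 FPKM in siEchs1 L2C against 254 ± 35.6 FPKM in siEchs1 E2C (SD, n = 3 each; -1.29, limma adjusted p = 0.0135). That call ended with the siEchs1 libraries alone in the fit (limma adjusted p = 0.0954) and without replicate 3 of siEchs1 L2C (-1.10, 0.0605). Irf1 did not overlap between the stages, at 78.9 to 148 FPKM in siEchs1 L2C against 4.56 to 65.6 FPKM in siEchs1 E2C, and missed the threshold (2.09, SE 0.73, limma adjusted p = 0.0767). Without replicate 3 of siEchs1 E2C, the library that stood apart, the Irf1 change was 1.03 (limma adjusted p = 0.123). Leaving out replicate 2 of siEchs1 E2C brought it past the threshold (2.82, limma adjusted p = 0.0207), as did leaving mitochondrial and ribosomal RNA out of the scaling (2.19, 0.0448). Stat2 was at 3.68 ± 0.513 FPKM in siEchs1 L2C against 2.13 ± 0.251 FPKM in siEchs1 E2C (0.58, limma adjusted p = 0.302). Ifi35 (0.53, limma adjusted p = 0.497), Isg15 (0.01, limma adjusted p = 1) and Irf9 (0.09, limma adjusted p = 0.926) were likewise not called. Without replicate 3 of siEchs1 E2C the values were 0.70 for Ifi35 (limma adjusted p = 0.337), 0.70 for Isg15 (0.325), 0.54 for Irf9 (0.325), 0.63 for Stat2 (0.251) and -1.21 for Ifitm3 (0.0113), so Ifitm3 kept its call and the others gave none. Ifitm1 was at 0.92 (limma adjusted p = 0.191), or 1.00 (0.157) without that replicate, and was called with a pseudocount of 0.1 (2.26, limma adjusted p = 0.0337). Irf7 (0.01, limma adjusted p = 0.994) and Ifitm2 (0.08, 0.90) were not called. Without the replicate they were at 0.34 (limma adjusted p = 0.642) and 0.17 (0.766). Of all 17652 genes 11.8% were higher and 2.73% lower, 2090 and 482 genes, or 1075 and 785 after quantile normalization. Without replicate 3 of siEchs1 E2C the shares were 14.5% and 5.08%. With all libraries the median was 0.09 over the 9 genes and 0.23 over all genes.

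**Figure D3:**
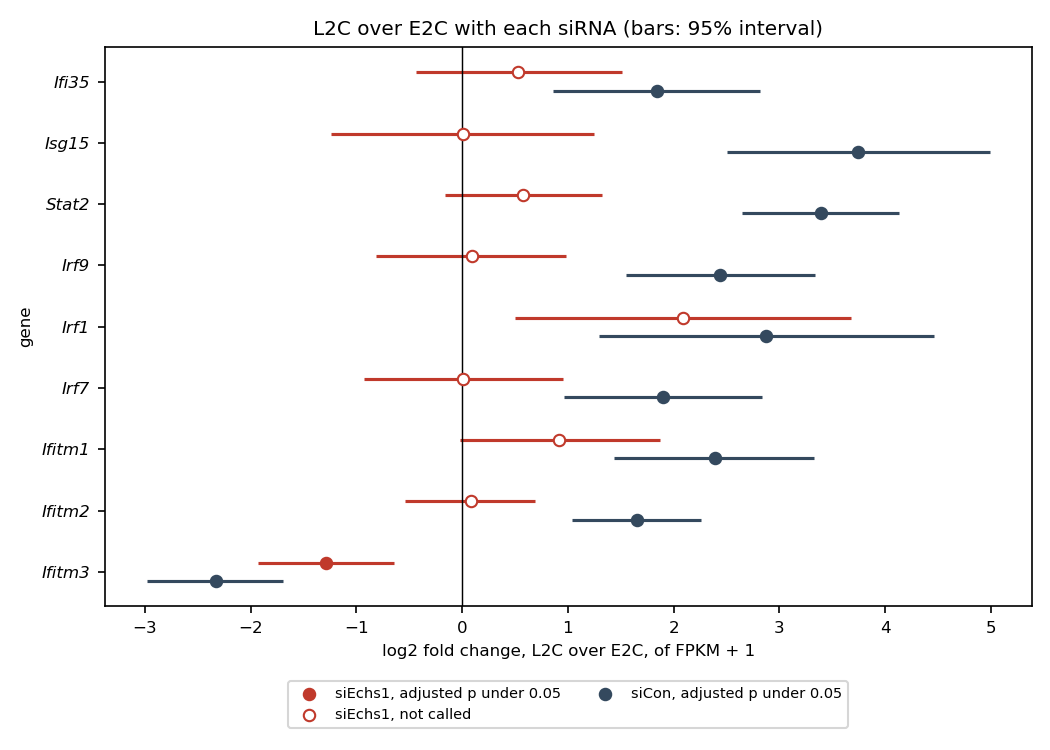
Log2 fold change of FPKM + 1, L2C over E2C, for each of the 9 genes in siEchs1 embryos (red, upper) and siCon embryos (dark, lower); points are limma estimates, bars 95% intervals, and filled points have an adjusted p under 0.05. In siCon all 9 points are filled, Ifitm3 (-2.33) alone left of 0, while in siEchs1 only Ifitm3 (-1.29) is filled.

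Ordered by mean level, Ifi35 was highest in siCon L2C (50.9 FPKM), then siCon E2C (13.0), siEchs1 L2C (1.61) and siEchs1 E2C (0.73), and the last 2 groups overlapped. Isg15, Irf9, Ifitm1, Irf7, Ifitm2 and Stat2 were also highest in siCon L2C, with no overlap with the next group. This order was not counted over all genes. Of all 17652 genes 42.8% were higher in every siCon L2C library than in any siCon E2C library. Lower in every siEchs1 L2C library than in any siCon L2C library were 32.6%. Isg15, Irf7 and Ifitm2 would not have passed the filter without siCon L2C, so their order is given as a value and not as support. Below siCon L2C, Irf9, Ifitm1 and Ifitm2 had siCon E2C next, Stat2 had siEchs1 L2C, and Isg15 had siEchs1 E2C, there by replicate 3 alone. For Irf7, siEchs1 L2C and siEchs1 E2C had the same mean of 0.437 FPKM. It came mostly from replicate 1 of siEchs1 L2C (1.09 FPKM) and replicate 3 of siEchs1 E2C (1.15 FPKM). Irf1 was highest in siEchs1 L2C and each group overlapped its neighbour in that order. Ifitm3 was highest in siCon E2C, followed without overlap by siEchs1 E2C and then siEchs1 L2C, which overlapped siCon L2C.

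The patterns most like that of Ifi35 over the 12 siRNA libraries belonged to Fgf4 (Pearson r = 0.99), Pcgf5 (0.99), Trim43b (0.983), Tdpoz1 (0.982) and Polh (0.982), of 8646 genes with a mean of at least 5 FPKM. The libraries fall into 4 groups, so this coefficient describes group levels as much as single libraries. Fgf4, a growth factor gene, averaged 0.277 FPKM in siEchs1 E2C against 7.71 FPKM in siCon E2C, and 1.18 FPKM in siEchs1 L2C against 29.6 FPKM in siCon L2C. Pcgf5, a Polycomb group gene, averaged 16.1 FPKM in siEchs1 E2C against 101 FPKM in siCon E2C, and 25.6 FPKM in siEchs1 L2C against 235 FPKM in siCon L2C. None of these 5 stood on the interferon lists. Within the set, r with Ifi35 was 0.90 for Ifitm1, 0.86 for Irf9, 0.81 for Ifitm2, 0.74 for Stat2, 0.67 for Isg15 and 0.66 for Irf7, but -0.13 for Ifitm3 and -0.19 for Irf1.

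In the treatment experiment most of the set lay near 0 in every group, the DMSO embryos included. Ifi35 was at 0.70 and 0.37 FPKM in crotonate and 1.73 and 0.21 FPKM in acetate, against 0.28 and 0.14 FPKM in DMSO. All 6 values were below the 10.8 to 14.3 FPKM of siCon E2C, although both experiments name E2C. The experiments were fitted apart and the gap between them was not tested. The summed level of the 7 genes of the 2-cell stage was 175 to 323 FPKM in DMSO, also below that of siCon E2C. Isg15 stayed at or under 1.08 FPKM in the treatment libraries, Irf9 at or under 1.18, Ifitm1 at or under 0.85, Ifitm2 at or under 0.80 and Irf7 at or under 0.24 FPKM. These genes and Ifi35 reached 1 FPKM in fewer than 2 of the 6 libraries and were not tested.

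Stat2, Irf1 and Ifitm3 were tested between treatments, and limma called none of them in any of the 3 comparisons. Irf1 was at 3.63 and 5.63 FPKM in crotonate and 5.66 and 16.2 FPKM in acetate, against 12.7 and 16.5 FPKM in DMSO. Crotonate and DMSO did not overlap, with a log2 fold change of -1.48 (SE 0.49, 95% interval -2.63 to -0.33, limma adjusted p = 0.196). At an unadjusted p of 0.0178 this was the only value under 0.05 of the 9 tested. It was called with the crotonate and DMSO libraries alone in the fit (limma adjusted p = 0.039) and without acetate replicate 1 (0.0376) or 2 (0.0417). For acetate against DMSO the log2 fold change of Irf1 was -0.53 (95% interval -1.67 to 0.62, limma adjusted p = 0.80).

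Stat2 was at 0.77 and 1.58 FPKM in crotonate and 1.83 and 1.97 FPKM in acetate, against 2.26 and 1.62 FPKM in DMSO. Crotonate lay below both other groups, by little, and its log2 fold change against DMSO had a 95% interval of -1.27 to 0.37 (limma adjusted p = 0.582). Ifitm3 was at 132 and 113 FPKM in crotonate and 193 and 136 FPKM in acetate, against 117 and 157 FPKM in DMSO. Acetate overlapped DMSO, and so did crotonate. The 95% interval was -0.86 to 0.55 for crotonate against DMSO (limma adjusted p = 0.855) and -0.45 to 0.96 for acetate against DMSO (limma adjusted p = 0.828).

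Crotonate is an unsaturated short-chain carboxylate and acetate a shorter one without the double bond. Their doses are not stated, so it is not known whether they match. For crotonate against acetate the 95% interval was -2.10 to 0.19 for Irf1 (-0.95, limma adjusted p = 0.347), -1.26 to 0.38 for Stat2 (-0.44, limma adjusted p = 0.553) and -1.11 to 0.30 for Ifitm3 (-0.41, limma adjusted p = 0.526). In each of these 3 genes both crotonate values lay below both acetate values, as in 27.6% of all 13789 genes, while 17.9% lay above, and limma called none of the 3. Of all 13789 genes tested, limma called 0.210% higher and 0.319% lower in crotonate than in DMSO (29 and 44 genes), 0.00725% and 0.0580% in acetate than in DMSO (1 and 8), and 1.02% and 0.841% in crotonate than in acetate (141 and 116). After quantile normalization the last split was 179 and 97, and after rescaling without mitochondrial and ribosomal RNA 121 and 49. The first was 30 and 30 after quantile normalization.

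The rest of the pathway was followed through 116 genes in lists by role, of which 68 passed the filter in the siRNA experiment. At L2C 11 of the 68 were higher in siEchs1 and 18 lower, with a median log2 fold change of -0.31. That is 16.2% higher and 26.5% lower, beside 21.9% and 26.9% of all genes. At E2C 6 were higher and 5 lower, 8.82% and 7.35% beside 11.0% and 9.31% of all genes. For the difference of the effects 3 were positive and 7 negative, 4.41% and 10.3% beside 5.65% and 11.6%. Between the stages 30 rose and 7 fell in siCon, 44.1% and 10.3% beside 35.8% and 14.4%, and 10 rose and 2 fell in siEchs1, 14.7% and 2.94% beside 11.8% and 2.73%. With all libraries in the fit, the shares of the lists lay near those of all genes in these comparisons. Of the genes described below, Ifngr2, Dhx58, Ticam1 and Tap1 would, like Ube2l6, not have passed the filter without the siCon L2C libraries. Their lower levels at L2C are given as values and not as support.

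Most ligands were near 0. Of 14 interferon genes, the 12 other than Ifng and Ifnk were listed at 0 in 200 of 216 values and reached at most 0.62 FPKM. Ifnk was at 2.23 FPKM in replicate 3 of siEchs1 E2C and at most 0.47 FPKM elsewhere. Ifng was at 0.97, 0.59 and 2.84 FPKM in siEchs1 L2C, against 2.66, 4.16 and 10.0 FPKM in siCon L2C, with overlap. Of 7 receptor and kinase genes tested at L2C, 1 was higher and 4 were lower, beside 21.9% and 26.9% of all genes. Il10rb, a receptor chain shared by type III interferons and interleukin 10, was at 17.1 ± 3.52 FPKM in siEchs1 L2C against 1.97 ± 0.663 FPKM in siCon L2C (SD, n = 3 each; 2.62, limma adjusted p = 0.000287). Ifngr2, a chain of the interferon gamma receptor, was at 0.69 ± 0.176 FPKM in siEchs1 L2C against 4.61 ± 1.96 FPKM in siCon L2C (-1.68, limma adjusted p = 0.00193). The kinase gene Jak2 was at 26.3 ± 3.42 FPKM in siEchs1 L2C against 96.2 ± 23.6 FPKM in siCon L2C (-1.81, limma adjusted p = 0.00351).

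Among 5 other STAT and IRF factors tested, Irf8 was higher in siEchs1 L2C (18.4 ± 1.72 against 2.76 ± 1.92 FPKM in siCon L2C, SD, n = 3 each; 2.54, limma adjusted p = 0.000938). Of 13 sensors and adaptors 1 was higher and 4 were lower at L2C, beside 21.9% and 26.9% of all genes. Dhx58, a RIG-I-like receptor, was at 0.447 ± 0.212 FPKM in siEchs1 L2C against 7.74 ± 0.954 FPKM in siCon L2C (-2.60, limma adjusted p = 0.000129). The adaptor gene Ticam1 was lower too (-2.24, limma adjusted p = 0.00107). The kinase gene Tbk1, which acts upstream of IRF3, was higher at L2C (8.78 ± 0.299 FPKM in siEchs1 against 1.54 ± 0.433 FPKM in siCon; 1.96, limma adjusted p = 0.000327).

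Of 18 antiviral effector genes tested at L2C 4 were higher and 5 lower, beside 21.9% and 26.9% of all genes. Parp9, an ADP-ribosyltransferase family gene, was at 1.2, 1.29 and 0.35 FPKM in siEchs1 L2C, against 8.52, 8.61 and 18.84 FPKM in siCon L2C (-2.69, limma adjusted p = 0.000341). Ifit1bl2 was higher, at 64.4 ± 2.81 FPKM in siEchs1 L2C against 13.4 ± 7.69 FPKM in siCon L2C (2.37, limma adjusted p = 0.000683). So was the guanylate-binding gene Gbp7 (2.05, limma adjusted p = 0.000891). Ifitm6, a further gene of the Ifitm family, was at 385, 252 and 280.3 FPKM in siEchs1 L2C, against 46.77, 73.29 and 29.84 FPKM in siCon L2C (2.66, limma adjusted p = 0.000387), opposite in sign to Ifitm1 and Ifitm2.

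Antigen presentation genes under interferon control had 0 higher and 3 lower of 10 at L2C, beside 21.9% and 26.9% of all genes. The median log2 fold change of the 10 was -1.14. Psme1, a proteasome activator subunit, was at 1.68, 0.99 and 0.62 FPKM in siEchs1 L2C, against 14.56, 35.35 and 22.95 FPKM in siCon L2C (-3.54, limma adjusted p = 0.000407). The immunoproteasome gene Psmb10 was lower as well (-2.30, limma adjusted p = 0.000171). Tap1, a peptide transporter gene, was lower (-1.01, limma adjusted p = 0.0399) but lost its call under 11 of 20 other settings, among them without replicate 1 (-0.65, limma adjusted p = 0.162) or 2 (-0.92, 0.103) of siCon L2C or any replicate of siEchs1 L2C (0.0792 to 0.0909), and when the E2C library siCon replicate 3 (0.052) or the E2C library siEchs1 replicate 2 (0.0508) was dropped. Of 10 feedback genes 3 were higher and 1 was lower at L2C, beside the same shares of all genes. Socs3, which inhibits JAK kinases, was at 20.17, 14.72 and 10.15 FPKM in siEchs1 L2C, against 85.64, 88.41 and 84.37 FPKM in siCon L2C (-2.49, limma adjusted p = 0.000115). Pias1, of a family that inhibits STAT factors, was higher (1.26, limma adjusted p = 0.00643). The phosphatase gene Ptpn6 was higher (2.22, limma adjusted p = 0.0202), and that call ended without replicate 1 (0.0846) or 3 (0.0549) of siEchs1 L2C or replicate 3 of siCon L2C (0.0721). Tyk2 was lower (-1.41, limma adjusted p = 0.0229), and its call ended without replicate 3 of siCon L2C (0.074) or of siEchs1 L2C (0.0813). Of 19 listed genes called at L2C and recomputed, the other 16 kept their calls under all 20 other settings.

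At E2C, 1 of the 11 calls of the lists held under all 20 other settings. Trim28, a corepressor of transcription, was at 144 ± 39.6 FPKM in siEchs1 E2C against 36.6 ± 9.04 FPKM in siCon E2C (SD, n = 3 each; 1.93, limma adjusted p = 0.0043), and was called under all 20 settings. Tbk1 was higher as at L2C (1.34, limma adjusted p = 0.01) and lost its call when only the 6 E2C libraries were fitted (0.0611). Stat3, Irf8, the adaptor gene Mavs and the feedback gene Socs1 were higher by 1.36 to 2.02 on the log2 scale, with limma adjusted p of 0.0144 to 0.0271. Tlr3, Parp9, Psme1, Psmb10 and B2m, the light chain gene of MHC class I, were lower, with log2 fold changes of -2.11 to -1.05 and limma adjusted p of 0.0135 to 0.0246. Each of these 9 calls ended when 1 of siCon E2C replicates 1 to 3 or of siEchs1 E2C replicates 1 and 2 was left out (limma adjusted p up to 0.0994). Without replicate 3 of siEchs1 E2C none of the 11 calls ended, and 18 listed genes were called. Of all genes 13.8% were then lower and 23.0% higher. Gbp7 (1.03, limma adjusted p = 0.0257) and Ptpn6 (1.58, 0.0291) were among those added.

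Between treatments 51 of the listed genes were tested. An unadjusted limma p under 0.05 was found for 10 in crotonate against DMSO, 1 in acetate against DMSO and 12 in crotonate against acetate. The share of all genes under that cut was not computed, so these counts are not read further. After adjustment limma called 0 for crotonate against DMSO and 0 for acetate against DMSO. For crotonate against acetate it called Tyk2, a kinase of the type I interferon receptor, at 14.1 ± 1.81 FPKM in crotonate against 3.01 ± 0.636 FPKM in acetate (SD, n = 2 each; 1.92, limma adjusted p = 0.0422). That call ended without replicate 1 (limma adjusted p = 0.0957) or 2 (0.0939) of DMSO or replicate 1 (0.232) or 2 (0.386) of crotonate, with the crotonate and acetate libraries alone (0.0915) and with the replicate number as a block (0.0565).

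**Figure D4:**
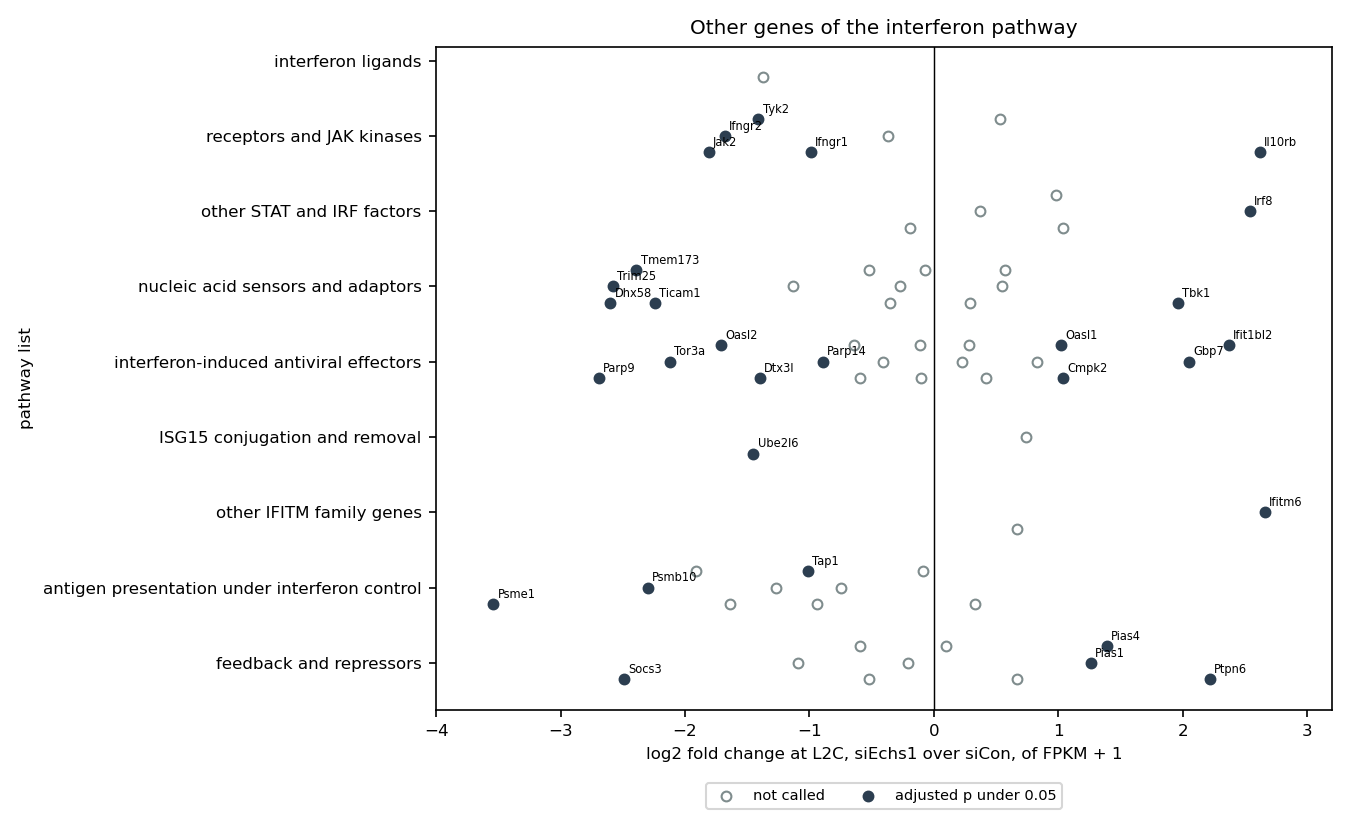
Log2 fold change of FPKM + 1 at L2C, siEchs1 over siCon, of the 68 other pathway genes tested, 1 point a gene, by list; filled points have an adjusted p under 0.05 and are named. Called genes lie on both sides of 0, 11 to the right and 18 to the left.

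Sums of blood and immune markers were lower in siEchs1 at both stages. Oocyte sums were higher at L2C and, in replicates 1 and 2 alone, at E2C. Sums of the other cell types overlapped between siEchs1 and siCon. The 8 oocyte genes, which include Zp3, Gdf9 and Bmp15, summed to 10885 to 15026 FPKM in siEchs1 L2C against 570.1 to 765 FPKM in siCon L2C. At E2C the oocyte sum was 8646, 12285 and 1686 FPKM in siEchs1 replicates 1, 2 and 3, against 1509 to 1776 FPKM in siCon. Replicate 3 of siEchs1 E2C thus lay within the siCon range of the oocyte sum, as it did for Irf1. Bmp15 overlapped at E2C also without replicate 3, at 883 and 1342 FPKM in siEchs1 against 768 to 1018 FPKM in siCon. No oocyte gene was at 0 in any library. Blood and immune cells express many interferon genes. The summed level of 12 such markers was 9.98 to 40.4 FPKM in siEchs1 L2C, with 1 to 4 of the 12 at 0, against 160.3 to 195 FPKM in siCon L2C, with 1 to 3 at 0. At E2C it was 5.00 to 19.4 FPKM in siEchs1, with 2 to 4 at 0, against 75.3 to 95.3 FPKM in siCon, with 0 to 1 at 0. Hemoglobin Hba-a1, at 70.9 to 104 FPKM in siCon L2C, and Cd74, at 14.8 to 64.2 FPKM there, made up most of the sum at L2C. In siCon E2C it was mostly Hba-a1 (26.5 to 37.2 FPKM) and Hba-a2 (21.3 to 50.8 FPKM), with Cd74 at 2.61 to 3.97 FPKM. Not all markers of the list were lower. Laptm5 was at 5.40, 4.95 and 4.27 FPKM in siEchs1 L2C, against 4.28, 4.46 and 1.67 FPKM in siCon L2C. The hemoglobin genes Hbb-bs and Hbb-bt were at most 0.48 FPKM in siCon L2C. The pan-leukocyte gene Ptprc was at or under 0.26 FPKM in every siRNA library. The part of the oocyte, blood and immune markers in the values of the interferon genes was not tested. Summed markers of cumulus and granulosa cells were at 6.18 to 9.88 FPKM in siEchs1 L2C and 2.07 to 7.65 FPKM in siCon L2C. Sums of sperm and testis genes and of oviduct genes overlapped between siEchs1 and siCon at both stages.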

How the data were processed

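Poly(A) RNA of pooled mouse embryos was amplified by Smart-seq2 and read from both ends, per the labels' protocols. The submitters' processing notes name cutadapt 1.16, STAR and the build mm10. The authors deposited FPKM values, 1 file a library with 55335 entries. Not given in the sources used here are the STAR version and the program and annotation behind the FPKM. Such values are scaled by each library's own depth, so a few abundant transcripts can shift all others, and they hold no counts and no strand. Depth is therefore unknown beyond a rough estimate, for which 38.8% to 55.9% of low values came out whole with a tolerance of 0.15 fragments, where 30% would by chance.

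Groups were taken from the sample titles. Titles and file headers number replicates 2 and 3 of siEchs1 L2C in opposite order, and the titles were used. Symbols that occur more than once (108) or were turned into dates (27) were left out. The design had foreseen a count test in case the files held counts, and the test for normalized values was used. Values were tested as log2(FPKM + 1) with limma 3.58.1 in R 4.3.3, with a variance trend and robust moderation, two-sided. Genes entered with at least 1 FPKM in at least 3 of 12 siRNA libraries (17652 genes) or 2 of 6 treatment libraries (13789 genes), each experiment in 1 fit. Calls are limma p-values under 0.05 after Benjamini-Hochberg adjustment over all genes tested. Fold changes on this scale understate changes of genes with low values. All 95% intervals are from limma. The fit was tested on simulated data. The comparisons were siEchs1 against siCon at each stage, the difference of these effects, L2C against E2C with each siRNA, and each pair of treatments.

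The 9 genes and all lists were chosen with earlier results of these data known. All 9 genes are described. From each list up to 3 called genes with the smallest adjusted p at L2C and at E2C are named, with Nmi as the partner of Ifi35. A result of 1 further gene is not reported here. Of 116 listed genes 115 were matched by symbol. Genes like Ifi35 were the 5 with the highest Pearson r among genes with a mean of at least 5 FPKM and a symbol other than that of a predicted gene. Gene positions are from GENCODE M21 and promoters from RefSeq, matched by symbol. Other settings were quantile normalization, rescaling without mitochondrial genes and 2 ribosomal RNA genes, no filter, a pseudocount of 0.1, no trend, the replicate number as a block, the compared libraries alone and leaving out each library. A block with the header numbers was added after the data had been seen.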

Additional observations from a re-analysis of the deposited data

Results flagged for a closer look

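For 4 genes the effect of siEchs1 differed between the stages by a test of the difference itself, with the log2 fold change at L2C below that at E2C. Of all 17652 genes 11.6% were called negative in this test and 5.65% positive. The difference was -3.74 for Isg15 (limma adjusted p = 0.0118), with log2 fold changes of -3.39 at L2C and 0.35 at E2C. It was -2.81 for Stat2 (limma adjusted p = 0.00525), with -2.72 at L2C and 0.09 at E2C. It was -2.36 for Irf9 (limma adjusted p = 0.0193), with -3.03 at L2C and -0.67 at E2C. It was -1.57 for Ifitm2 (limma adjusted p = 0.0206), with -1.75 at L2C and -0.18 at E2C. Ifitm2 entered the test only through the 3 siCon L2C libraries, in which it was high, and was at most 0.52 FPKM in the other siRNA libraries, so its difference is given as a value and not as support. The same holds for Isg15, which would not have passed the filter without siCon L2C. With a pseudocount of 0.1 the calls of Isg15 (limma adjusted p = 0.102), Irf9 (0.19) and Ifitm2 (0.111) ended, and that of Stat2 held. In siCon E2C the 4 genes were at or under 2.43 FPKM in every library, which left little room for a fall at E2C on this scale. The test thus cannot tell a smaller effect at E2C from a floor.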

How the results depend on the processing

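No result changed sign while called. Over 20 other settings in the siRNA experiment and 13 in the treatment experiment, 979 of 1008 log2 fold changes of the 9 genes kept their side of the threshold, 17 passed it and 12 lost it. At L2C all 7 calls of siEchs1 against siCon held in all 20 settings, and the replicate block, the replicate number of the titles as a block, also gave 7. At E2C the calls of Ifi35 and Ifitm1 held in all 20. Log2 fold changes near 0 that gave no call, such as those of Stat2, Isg15 and Irf7 at E2C, took either sign.

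The number of the 9 genes called was 2 at E2C and 2 to 5 without a library, 7 at L2C and 7 to 8, and 9 for the stages in siCon, with 9 without any library. For the difference of the effects it was 4, with 2 to 5 without a library and 1 with a pseudocount of 0.1. For the stages in siEchs1 it was 1, with 0 to 2 without a library, 2 after rescaling, with a pseudocount of 0.1 or with the block by header numbers, and 0 with the compared libraries alone. For crotonate against DMSO it was 0, with 0 to 1 without a library and 1 with the compared libraries alone. The causes were not tested. Pairing by number was checked on the log2 values after the group mean of each gene had been subtracted. What remained of same-numbered libraries correlated by -0.101 to 0.111 in the siRNA experiment and by -0.096 to 0.16 in the treatment experiment. With 2 libraries a group, both numbers of the treatment experiment give the same value by construction. The numbers were not taken as pairs. The block by title numbers changed no call of the 9 genes.

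All genes called at E2C numbered 3578, or 1889 to 6496 without a library and 1353 with the E2C libraries alone. For the difference they numbered 3039, or 1291 to 4061 without a library, 1869 without the filter and 1794 with a pseudocount of 0.1. For the stages in siEchs1 they numbered 2572, or 1174 to 3453 without a library, 1704 without the filter and 566 with the compared libraries alone. They were 73 for crotonate against DMSO (8 to 1143 without a library), 9 for acetate against DMSO (1 to 904) and 257 for crotonate against acetate (9 to 1425). Other pathway genes called at E2C numbered 11, or 4 to 18 without a library and 1 with the E2C libraries alone. Values under 1 FPKM rest on few fragments, and 2 or 3 libraries a group limit every interval.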
